A study of Mus musculus with 69 samples.

Results

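Gene expression was compared between 4 mouse hearts taken 24 h after 1 injection of potassium cyanide (KCN) under the skin and 4 hearts taken 24 h after saline. These are 8 of the 69 arrays of a study of cyanide poisoning, chosen by their labels (KCN or saline, 24 h). The KCN dose was 8.0 mg/kg, and all mice were adult males of the outbred CD-1 stock. Other hearts were used to place the 24 h values. They were taken after KCN at 1 h (4 arrays), 2 h (4 arrays), 4 h (3 arrays) and 8 h (4 arrays), and after saline at 1 h (4 arrays), 2 h (3 arrays), 4 h (3 arrays) and 8 h (4 arrays). Others were taken after inhaled hydrogen cyanide (HCN, 327 ppm) at 24 h (4 arrays) and after air at 24 h (4 arrays). All 69 arrays also set which probe sets were tested and the spread behind the fitted p-values. The labels name the heart as the tissue without saying which chambers were taken, and give the arrays of a group as biological replicates. RNA was hybridised to Affymetrix mouse arrays, on which a gene can have several probe sets, each a group of short probes for 1 stretch of its transcripts. Values are log2 signals, so a difference of 1 is a doubling.

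Cyanide binds the haem and copper centre of cytochrome c oxidase, the last complex of the mitochondrial respiratory chain, and stops the use of oxygen. Heart muscle, which makes nearly all of its ATP by respiration of fatty acids, lactate and glucose, is among the most sensitive tissues. Animals clear cyanide mainly by attaching sulfur to it, which gives thiocyanate; rhodanese (Tst) and mercaptopyruvate sulfurtransferase (Mpst) are the enzymes that carry out this step.

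Heart muscle transcripts were high in all 8 arrays. Transcripts of liver, airway and fat, described further below, differed from heart to heart. The ventricular myosin light chain Myl2 measured 13.39, 13.48, 13.50 and 13.54 in KCN hearts and 13.51, 13.54, 13.56 and 13.52 in saline hearts. Cardiac troponin I (Tnni3) lay between 12.87 and 12.94 in KCN hearts and between 12.90 and 12.95 in saline hearts, and the atrial peptide gene Nppa lay between 13.05 and 13.27 in KCN hearts and between 13.15 and 13.27 in saline hearts. The groups overlapped for all 3 genes.

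Several features of these arrays touch every result. The actin 3' to 5' log2 ratio, a measure of how far labelling reached along the transcript, was 0.473 ± 0.131 in KCN hearts and 0.878 ± 0.0910 in saline hearts (SD, n = 4 each). The groups did not overlap, and the two-sided exact permutation p was 0.0286, the smallest that 4 against 4 arrays can give (0.0358 adjusted over 5 quality measures). The 18S signal was also lower, at 13.1 ± 0.0778 in KCN hearts against 13.4 ± 0.0379 in saline hearts (exact permutation p = 0.0286, adjusted 0.0358). The Gapdh 3' to 5' ratio, at 0.0175 in KCN hearts and 0.0542 in saline hearts, did not pass the test (exact permutation p = 0.40).

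The saline hearts of 24 h stood apart from the other saline hearts. Among the 3191 probe sets called between KCN and saline at 24 h, the KCN 24 h mean lay outside the range of the 4 earlier saline group means in 957 (30.0%), against 32.2% of all probe sets tested. The saline 24 h mean lay outside that range in 2703 (84.7%), against 48.6% of all tested. In 2032 of the 3191, KCN 24 h was inside the earlier saline range and saline 24 h outside it. Set against the mean of saline 1, 2, 4 and 8 h, the KCN 24 h hearts had 689 called probe sets (2.57% of those tested) and the saline 24 h hearts 6009 (22.4%). Set against saline 2 and 8 h alone, the KCN 24 h hearts had 1152 (4.3%). The actin ratio of KCN hearts was close to those of saline 2 h (0.422) and 8 h (0.454), and that of saline 24 h hearts to those of saline 1 h (0.841) and 4 h (0.860). The 18S signal did not match in this way. It was 12 (SD 0.318) in saline 2 h hearts, the lowest of all groups. It was 13.2 in saline 8 h hearts and 13.1 in KCN 24 h hearts. The bearing of this on the comparisons with saline 2 and 8 h was not tested. How much of each difference below belongs to the saline 24 h hearts rather than to KCN cannot be told apart within the 8 arrays, so the earlier saline means are given beside many of the genes described. Among 83 probe sets followed through other settings, 27 lost their call without a change of sign with saline 2 and 8 h in place of saline 24 h. A further 19 called values changed sign there, and of these only Tfrc (adjusted p = 0.00023) and Usp2 (adjusted p = 0.0092) were called in the limma fit, in the opposite direction. With 1 covariate made from the differences between probe sets of the same gene, which lay 93% between the groups, 35 lost their call. Without KCN replicates 1 and 2, 32 did with the sign unchanged, and Cyp3a11 lost its call at a value of -2.5e-05.

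Across 26773 probe sets, 3191 (11.9%) differed between KCN and saline hearts at 24 h in the limma fit at an adjusted p under 0.05. Of these, 1817 (6.79%) rose and 1374 (5.13%) fell. Of the called probe sets, 1085 changed 1.5-fold or more, 676 upward and 409 downward, and 172 changed 2-fold or more. The 4 KCN values did not overlap the 4 saline values at 6041 probe sets (22.6%), 2857 of which were called. With each of 12436 genes taken by its probe set of highest mean signal, 1150 (9.25%) rose and 526 (4.23%) fell, and the median change of all genes was 0.05. Each count of list members below is to be read beside these shares. Left out 1 at a time, the 8 arrays gave between 1829 calls (without saline replicate 1) and 2771 calls (without saline replicate 4).

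Because the actin ratio differed, each gene was read over all its probe sets. Of 4881 genes with at least 2 tested probe sets, 1274 had a called one, and in 1008 of these only 1 was called. In 127 genes at least 2 probe sets rose and none fell, in 125 genes at least 2 fell and none rose, and 14 genes had probe sets called in both directions. All tested probe sets were called the same way in 112 genes (2.29%). In genes with at least 1 probe set that rose and none that fell, the probe sets not called were positive in 567 of 789 cases (71.9%, against 51.8% of all probe sets). In genes with at least 1 that fell and none that rose, those not called were negative in 792 of 1121 cases (70.7%). The 14 genes called in both directions are left out of these shares.

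Both sulfurtransferases that dispose of cyanide were higher in KCN hearts than in saline hearts of 24 h. Of 12 tested genes of cyanide and sulfide handling, 3 rose and none fell (over all genes 9.25% rose and 4.23% fell), with a median log2 change of 0.17 against 0.05 over all genes. Tst, which encodes rhodanese, measured 7.37, 7.28, 6.65 and 6.89 in KCN hearts and 5.85, 5.80, 6.04 and 6.10 in saline hearts. Every KCN heart lay above every saline heart. The difference was 1.10 on the log2 scale (SE 0.25, 2.14-fold, limma adjusted p = 0.00203). The means of the earlier saline groups, 6.47 to 6.86, fell between the 2 groups, so the KCN mean lay above and the saline 24 h mean below every earlier saline mean. The Tst call was lost against saline 2 and 8 h (0.29, adjusted p = 0.515) and without KCN replicates 1 and 2 (0.82, adjusted p = 0.117).

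Mpst, the other sulfurtransferase, measured 7.65, 7.69, 7.61 and 7.81 in KCN hearts and 6.90, 6.93, 7.02 and 7.22 in saline hearts, with no overlap. It rose by 0.67 (SE 0.13, 1.59-fold, limma adjusted p = 0.000381). Its earlier saline means ran between 7.47 and 7.70, which holds the KCN mean of 7.69 and lies above the saline 24 h mean of 7.02. Mpst was 0.36 higher with the actin ratio as covariate (adjusted p = 0.00787), 0.25 higher with the within-gene covariate (adjusted p = 0.231) and 0.03 higher than saline 2 and 8 h (adjusted p = 0.927). The third member called, Sqor (sulfide quinone oxidoreductase), rose by 0.19 (SE 0.07, limma adjusted p = 0.0499) at its brighter probe set and changed by -0.03 at the dim one. Its call was lost in 7 of the 8 fits that left out 1 array, with adjusted p between 0.0537 and 0.154. Ethe1, the mitochondrial persulfide dioxygenase, was 0.31 higher (adjusted p = 0.0914), and the hydrogen sulfide producing enzymes Cbs (0.07, adjusted p = 0.797) and Cth (0.27, adjusted p = 0.549) did not pass the test.

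Of 14 tested glycolytic enzymes, 6 rose, none fell and 8 were not called (median 0.09, against 0.05 over all genes, of which 9.25% rose and 4.23% fell), and 3 of the 6 calls held in every fit that left out 1 array. Pkm, encoding the pyruvate kinase of muscle and proliferating cells, measured 10.53, 10.74, 10.52 and 10.51 in KCN hearts and 9.85, 9.96, 9.87 and 10.04 in saline hearts. The groups did not overlap, and the rise was 0.64 (SE 0.12, 1.56-fold, limma adjusted p = 0.000113). With the within-gene covariate Pkm was 0.27 higher (adjusted p = 0.125). The aldolase gene Aldoa had 4 tested probe sets and all 4 rose, by 0.38 to 0.45, with adjusted p between 8.36e-07 and 0.00576. At its brightest, Aldoa measured 11.84, 12.14, 11.94 and 12.05 in KCN hearts and 11.44, 11.67, 11.71 and 11.66 in saline hearts, again without overlap.

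Muscle phosphofructokinase (Pfkm), which catalyses the committed step of glycolysis, rose by 0.42 (SE 0.11, limma adjusted p = 0.00635). Its earlier saline means of 10.92 to 11.45 hold the KCN mean, and its call was lost with the actin covariate (0.20, adjusted p = 0.153). The 3 remaining glycolytic calls were less firm. Pfkl (0.74) lost its call without KCN replicate 1 (0.63, adjusted p = 0.0518), Pgam2 (0.19) lost it in 4 of the 8 fits that left out 1 array (adjusted p up to 0.175) and Hk1 (0.40) in 7 (adjusted p up to 0.157). For Pkm and Aldoa too, the KCN mean lay within the earlier saline means, 10.19 to 10.68 for Pkm and 11.86 to 12.13 for the brightest probe set of Aldoa, and the saline 24 h mean below them. Against saline 2 and 8 h, 1 of the 14 glycolytic genes rose and none fell (among all genes, 1.81% rose and 2.11% fell).

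Pdk2, a kinase that switches off pyruvate dehydrogenase, measured 6.27, 8.60, 8.36 and 8.54 in KCN hearts and 6.92, 6.71, 6.46 and 6.50 in saline hearts. The first KCN heart lay below all saline hearts and the other 3 above them, and the mean difference of 1.30 passed the test (SE 0.34, limma adjusted p = 0.00713). The KCN mean lay within the earlier saline means of 7.37 to 8.84. Of 26 tested genes of fatty acid oxidation, 5 rose and none fell (median 0.10). Acads, the short-chain acyl-CoA dehydrogenase, measured 9.60, 9.44, 9.62 and 9.64 in KCN hearts and 8.89, 8.96, 9.04 and 9.05 in saline hearts (0.59, SE 0.12, limma adjusted p = 0.000559). Cpt2, which hands fatty acids to the mitochondrial matrix, rose by 0.40 (SE 0.10, adjusted p = 0.00442). For both, the earlier saline means lay at the KCN level, between 9.48 and 9.57 for Acads and between 10.61 and 10.79 for Cpt2. Both lost the call with the within-gene covariate (Acads 0.23, adjusted p = 0.260, and Cpt2 0.27, adjusted p = 0.174).

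**Figure D1:**
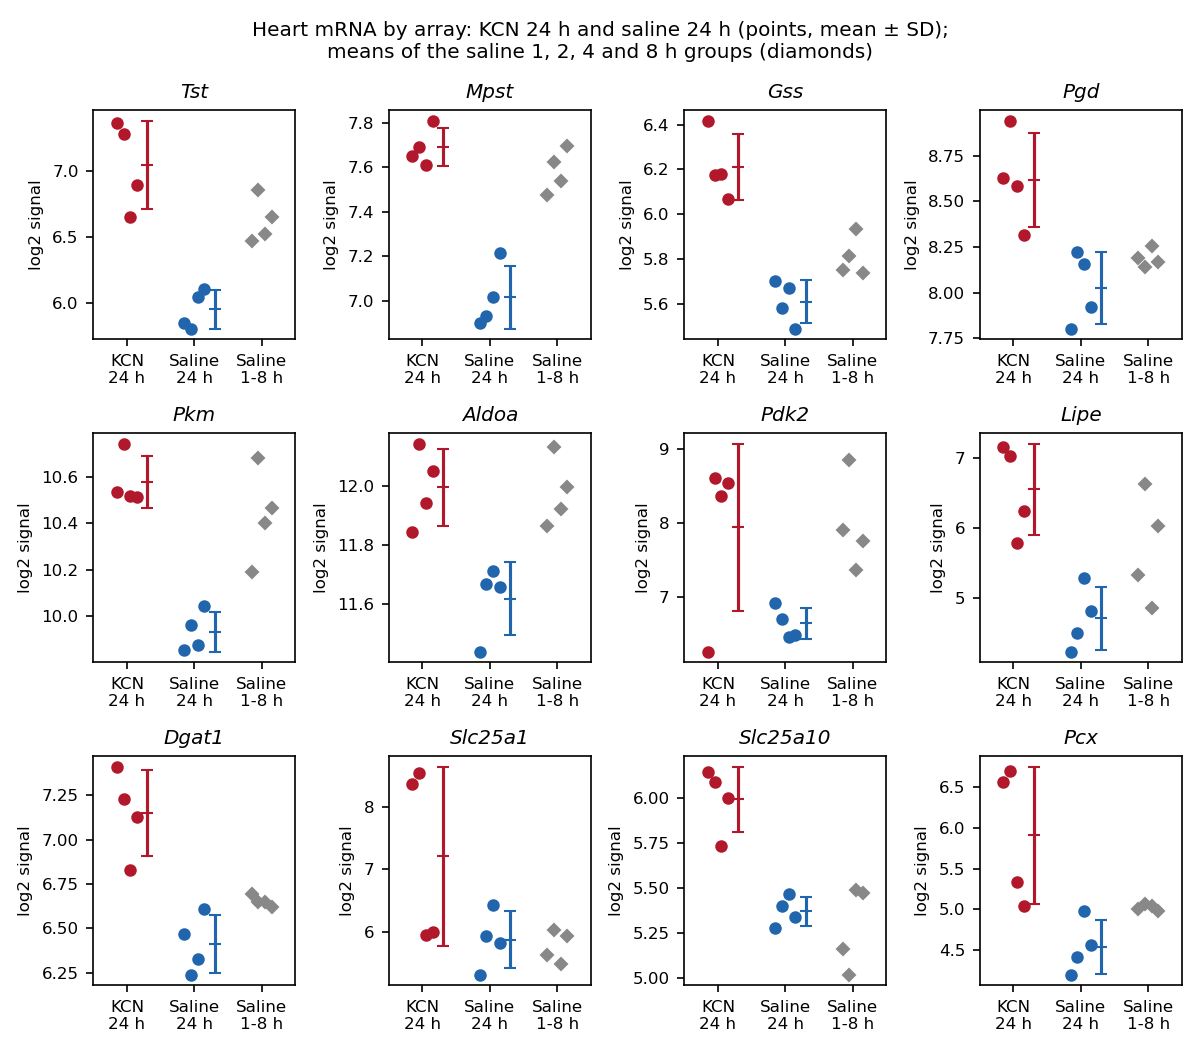
Log2 signal of 12 metabolic genes by array in KCN hearts (red) and saline hearts (blue) of 24 h, each with its mean and SD, and the group means of saline 1, 2, 4 and 8 h (grey diamonds, 1 for each group). For Mpst, Pkm and Aldoa the earlier saline means lie near the KCN values, for Dgat1, Gss and Slc25a10 they lie with or near the saline 24 h values, and for Slc25a1 only KCN replicates 1 and 2 stand above the rest.

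Dgat1 encodes the acyltransferase that completes triglyceride synthesis. It measured 7.41, 7.23, 6.83 and 7.13 in KCN hearts and 6.47, 6.24, 6.33 and 6.61 in saline hearts. No KCN heart overlapped a saline heart, and the rise was 0.74 (SE 0.14, 1.67-fold, limma adjusted p = 0.000157). The earlier saline means, 6.62 to 6.69, all lay below the KCN 24 h mean of 7.15. Dgat1 was also 0.52 higher than saline 2 and 8 h (adjusted p = 0.00679). Its KCN group means at 1, 2, 4 and 8 h were 6.70, 7.22, 6.70 and 6.98, so the KCN hearts of 2 h were as high as those of 24 h.

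Of 13 tested lipolysis and lipid droplet genes, 5 rose and none fell, beside 9.25% and 4.23% of all genes, with a median of 0.32. Lipe, hormone-sensitive lipase, measured 7.15, 7.04, 5.78 and 6.23 in KCN hearts and 4.22, 4.50, 5.28 and 4.80 in saline hearts. It rose by 1.85 (SE 0.32, 3.61-fold, limma adjusted p = 5.15e-05) with no overlap, and its earlier saline means spread from 4.85 to 6.63. Lipe was 0.22 higher than saline 2 and 8 h (adjusted p = 0.736). Mgll, monoacylglycerol lipase, rose by 0.37 (SE 0.09, adjusted p = 0.00294). Gpd1, which makes the glycerol backbone, measured 8.32, 8.26, 6.43 and 6.72 in KCN hearts and 5.82, 6.03, 6.49 and 5.90 in saline hearts. Its rise of 1.38 (adjusted p = 0.0126) lost the call without KCN replicate 1 (1.08, adjusted p = 0.0922) or without KCN replicate 2 (1.10, adjusted p = 0.078), and was 0.52 without both (adjusted p = 0.589).

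The enzymes that export citrate and make fatty acids had the highest median of the 32 pathway lists, 0.73 over 12 tested genes. Of these, 2 rose and none fell, beside 9.25% and 4.23% of all genes. In the limma fit 7 of the 12 had an unadjusted p under 0.05, beside 3483 of all 12436 genes. Pcx, pyruvate carboxylase, measured 6.57, 6.70, 5.33 and 5.04 in KCN hearts and 4.20, 4.42, 4.98 and 4.56 in saline hearts. It rose by 1.37 (SE 0.30, 2.59-fold, limma adjusted p = 0.00148) and its KCN mean lay above the narrow range of the earlier saline means, 4.98 to 5.06. Without KCN replicates 1 and 2 Pcx was 0.65 higher and lost its call (adjusted p = 0.309). Slc25a1, the mitochondrial citrate carrier, measured 8.35, 8.53, 5.96 and 6.0 in KCN hearts and 5.33, 5.94, 6.43 and 5.82 in saline hearts. Only KCN replicates 1 and 2 stood out, and the difference of 1.33 (adjusted p = 0.0176) lost its call without KCN replicate 1 (0.95, adjusted p = 0.146), without KCN replicate 2 (0.89, adjusted p = 0.155) or without saline replicate 1 (1.15, adjusted p = 0.0895). Without both KCN replicates 1 and 2 it was 0.10 (adjusted p = 0.939). Fatty acid synthase (Fasn) had the same order, with 9.62, 9.50, 6.01 and 6.0 in KCN hearts and 5.39, 6.31, 8.09 and 6.18 in saline hearts, and did not pass the test (1.29, adjusted p = 0.175).

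The dicarboxylate carrier Slc25a10 measured 6.14, 6.09, 5.73 and 6.0 in KCN hearts and 5.28, 5.40, 5.47 and 5.34 in saline hearts, a difference of 0.62 (SE 0.17, limma adjusted p = 0.00856). The earlier saline means, 5.02 to 5.49, lay below every KCN heart. Pgd, an NADPH-producing enzyme of the pentose phosphate pathway, passed the test at all 3 of its probe sets, which were 0.41 to 0.59 higher. At the brightest it measured 8.63, 8.94, 8.58 and 8.31 in KCN hearts and 7.80, 8.23, 8.16 and 7.92 in saline hearts (0.59, SE 0.15, limma adjusted p = 0.00483), and its earlier saline means lay between 8.14 and 8.26. Gss, glutathione synthetase, measured 6.42, 6.17, 6.18 and 6.07 in KCN hearts and 5.70, 5.58, 5.67 and 5.49 in saline hearts, without overlap (0.60, SE 0.13, limma adjusted p = 0.00156). Its earlier saline means of 5.74 to 5.93 also lay below the 4 KCN hearts. Without KCN replicates 1 and 2 these 3 genes were still higher but not called (Slc25a10 0.50, adjusted p = 0.171, Pgd 0.42, adjusted p = 0.180, and Gss 0.51, adjusted p = 0.0597).

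Promoter sequence is shown for 3 of these lipid and citrate genes because each carries the E-box CACGTG, a palindrome (the same on both strands) bound by basic helix-loop-helix factors, among them the circadian activators and sterol-responsive factors. The windows run from 250 bases before to 50 bases after a start of the gene, from RefSeq on GRCm38.p6, with the E-box in capitals. Pcx and Lipe each had 2 windows, and for each a window that holds the E-box was chosen.
Slc25a1, chr16:17928170-17928469, minus strand: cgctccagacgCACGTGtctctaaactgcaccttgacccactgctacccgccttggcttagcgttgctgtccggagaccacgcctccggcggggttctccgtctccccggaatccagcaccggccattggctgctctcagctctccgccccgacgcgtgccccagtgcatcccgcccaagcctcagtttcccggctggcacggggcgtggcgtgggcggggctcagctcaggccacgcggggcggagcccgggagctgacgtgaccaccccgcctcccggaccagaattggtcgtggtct
Pcx, chr19:4510222-4510521, plus strand: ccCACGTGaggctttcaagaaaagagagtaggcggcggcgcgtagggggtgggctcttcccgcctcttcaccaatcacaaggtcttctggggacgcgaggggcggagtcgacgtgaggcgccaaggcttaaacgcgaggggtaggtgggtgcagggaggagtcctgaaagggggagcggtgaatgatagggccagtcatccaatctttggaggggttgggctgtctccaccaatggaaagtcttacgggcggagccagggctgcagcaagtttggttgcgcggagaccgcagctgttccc
Lipe, chr7:25395938-25396237, minus strand: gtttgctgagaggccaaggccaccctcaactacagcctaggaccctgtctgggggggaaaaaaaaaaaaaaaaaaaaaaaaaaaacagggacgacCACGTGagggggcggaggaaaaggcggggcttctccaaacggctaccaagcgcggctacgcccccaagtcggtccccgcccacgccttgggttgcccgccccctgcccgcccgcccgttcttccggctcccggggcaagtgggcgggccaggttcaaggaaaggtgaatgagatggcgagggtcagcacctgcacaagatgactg
The E-box begins 239 bases before the start used for Slc25a1, 248 before that used for Pcx and 155 before that used for Lipe. It was present in 7.15% of all 32851 promoter windows of the table and in 11.6% of the tested genes with a window. Of the genes that rose 11.7% held it, and of those that fell 12.7%, so neither direction stood apart from the tested genes. It was found in 3 of 8 lipolysis genes, 3 of 11 lipogenic genes and 2 of 14 glycolytic genes with a window.

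Subunits of cytochrome c oxidase, the enzyme that cyanide blocks, mostly changed little in size. Of 20 tested subunit and assembly genes, 3 rose and 1 fell (over all genes 9.25% rose and 4.23% fell), with a median of 0.02. Over their 33 tested probe sets, 3 rose and 5 fell. Cox6a2 (0.19) and Cox8b (0.17) rose, with calls kept in 5 and 3 of the 8 fits that left out 1 array. Cox4i1, a core regulatory subunit, differed by 0.02 (SE 0.03, adjusted p = 0.697), and the KCN and saline hearts overlapped. Surf1, an assembly factor, rose by 0.27 (SE 0.07, limma adjusted p = 0.00726). The subunit gene Cox7a2 fell by 0.16 (SE 0.04, limma adjusted p = 0.00275) at its brighter probe set and differed by 0.01 at the other. Cox6c differed by -0.05 at its main probe set. A second Cox6c probe set measured 10.33, 10.73, 10.47 and 10.66 in KCN hearts and 11.06, 11.07, 10.99 and 10.97 in saline hearts, and fell by 0.47 (SE 0.11, limma adjusted p = 0.00221).

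Of 57 tested genes of complexes I, III and V, 9 rose and 3 fell, and their median of 0.0011 lay below the 0.05 of all genes. Of 63 mitochondrial ribosomal proteins, 9 rose and 1 fell (median 0.12), beside 9.25% and 4.23% of all genes, and 3 of these 10 calls held in every fit that left out 1 array. Of 53 cytosolic ribosomal proteins 2 rose and 2 fell. Mrpl4 measured 9.89, 9.79, 9.75 and 9.82 in KCN hearts and 9.14, 9.40, 9.31 and 9.37 in saline hearts, a rise of 0.51 (SE 0.08, limma adjusted p = 2.84e-05) to a level within its earlier saline means of 9.53 to 9.89. Mrps27 rose by 0.69 (SE 0.16, adjusted p = 0.00187), and its KCN mean lay above the earlier saline means of 5.99 to 6.43. Of 18 genes of mitochondrial dynamics and biogenesis, 1 rose and 2 fell (median -0.10). Tfb2m, a mitochondrial transcription factor, fell by 0.52 and Esrrg, a nuclear receptor of oxidative genes, by 0.43. Pink1, a kinase that marks damaged mitochondria, was 0.32 higher, a call kept in 3 of the 8 fits that left out 1 array.

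**Figure D2:**
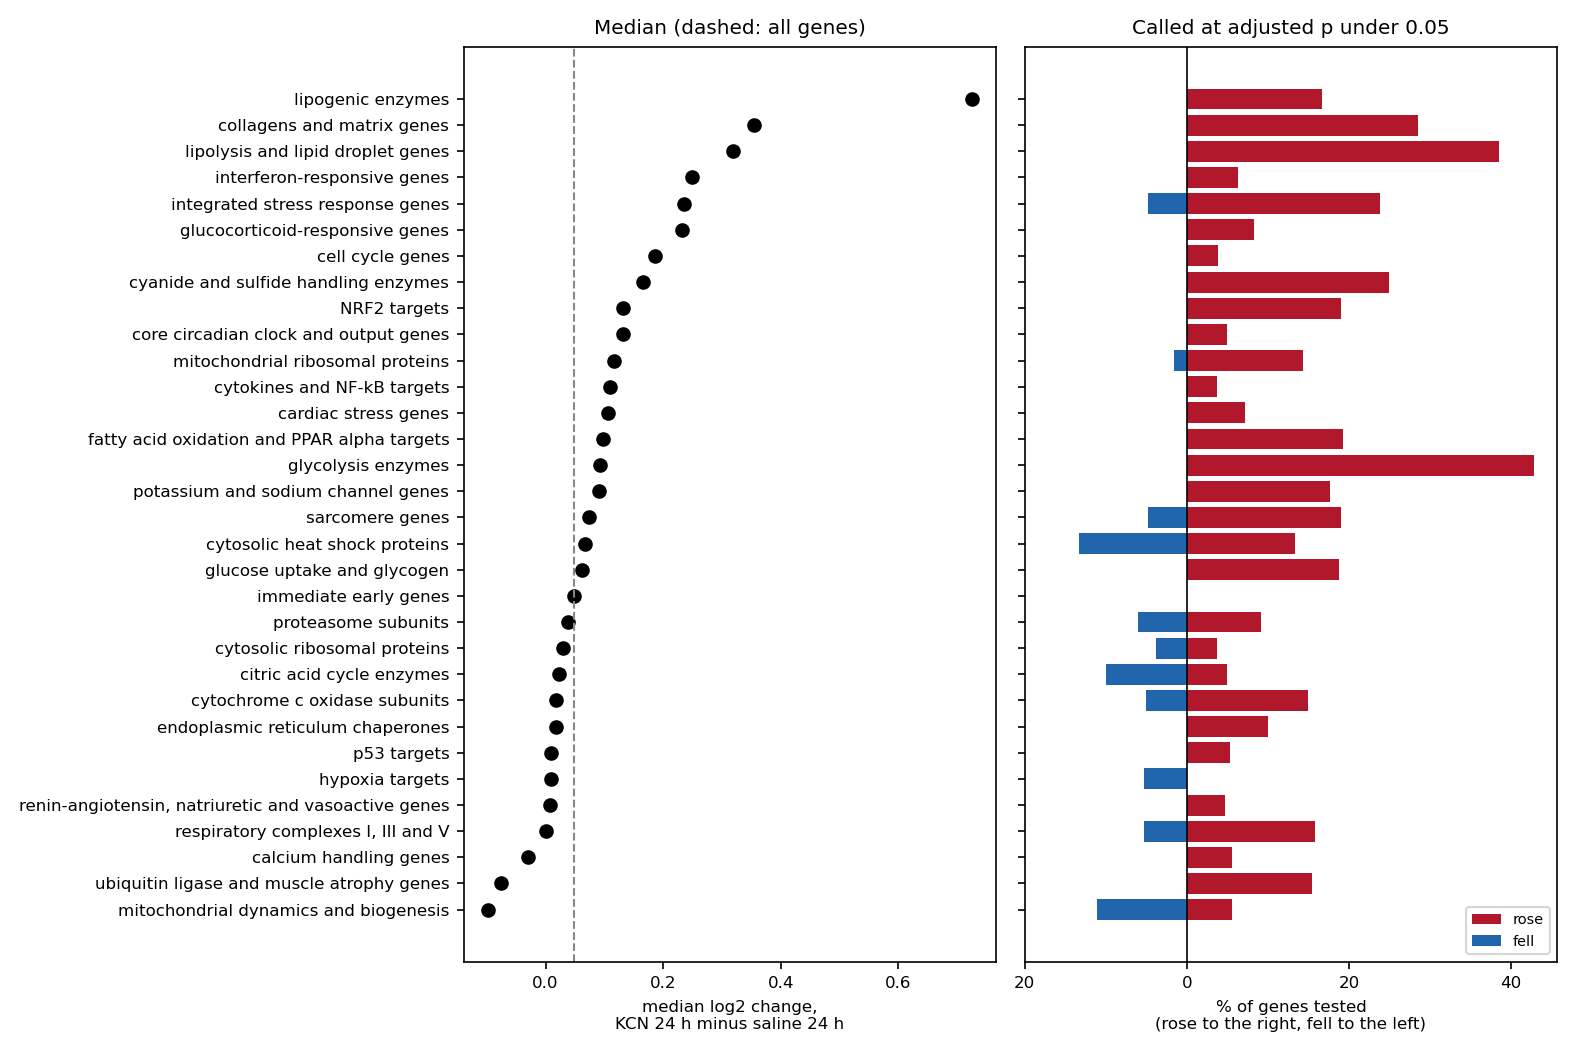
The 32 pathway lists, each gene taken by its probe set of highest mean signal. The left panel gives the median log2 change, KCN 24 h minus saline 24 h, with the median of all genes tested (0.05) as a dashed line, and the right panel the percentage of tested genes that rose (red, to the right) or fell (blue, to the left). Glycolysis has the highest share of genes that rose, 6 of 14, and the immediate early genes have none in either direction.

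Stress pathways differed in their counts. The integrated stress response is the programme set off when translation initiation is held back. Of its 21 tested genes, 5 rose and 1 fell (median 0.24), beside 9.25% and 4.23% of all genes. Ppp1r15a, the phosphatase subunit that ends the response, measured 6.20, 5.65, 6.20 and 6.12 in KCN hearts and 5.31, 4.79, 5.16 and 5.38 in saline hearts. It rose by 0.88 (SE 0.21, limma adjusted p = 0.00349) without overlap, and its earlier saline means ran between 5.63 and 6.95. Shmt2, a mitochondrial enzyme of serine and folate metabolism, rose by 0.75 (SE 0.16, adjusted p = 0.000791) to a level within its earlier saline means of 5.22 to 5.95, and Aars, the alanyl-tRNA synthetase, at both probe sets (0.47 and 0.68). The transcription factors of the pathway did not pass the test: Atf4 was 0.23 higher (adjusted p = 0.228), Ddit3 0.23 higher (adjusted p = 0.447) and Atf3 0.12 higher (adjusted p = 0.901). Against saline 2 and 8 h, none of the 21 rose and 2 fell.

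Of 21 NRF2 targets, genes of the antioxidant response, 4 rose and none fell (median 0.13), beside 9.25% and 4.23% of all genes. Ftl1, the ferritin light chain, rose by 0.56 (SE 0.14, limma adjusted p = 0.00506), whereas haem oxygenase 1 (Hmox1, 0.32, adjusted p = 0.554) and Nqo1 (-0.11, adjusted p = 0.715) did not pass the test. Sod3, the extracellular superoxide dismutase, is not in that list and rose at both probe sets. At the brighter one it measured 7.21, 7.61, 7.04 and 7.13 in KCN hearts and 5.79, 6.12, 5.98 and 6.40 in saline hearts, a 2.26-fold rise without overlap (log2 1.17, SE 0.26, limma adjusted p = 0.00126). The KCN mean lay within the earlier saline means of 6.51 to 7.79, and Sod3 was 0.03 higher than saline 2 and 8 h (adjusted p = 0.967). Sod3 lost its call with the within-gene covariate (0.49, adjusted p = 0.291) and without KCN replicates 1 and 2 (1.01, adjusted p = 0.0522).

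Of 19 hypoxia targets none rose and 1 fell in the limma fit, and 1 passed at an unadjusted p under 0.05 (over all genes, 3483 of 12436 did). That gene, Hif1a, which encodes the oxygen-regulated subunit itself, measured 8.75, 9.19, 8.88 and 9.16 in KCN hearts and 9.40, 9.44, 9.26 and 9.55 in saline hearts. It fell by 0.42 (SE 0.11, limma adjusted p = 0.00784), and the call was lost without KCN replicate 1 (-0.34, adjusted p = 0.0653), with the actin covariate (-0.31, adjusted p = 0.0708) and against saline 2 and 8 h (-0.04, adjusted p = 0.871). Vegfa was 0.06 and 0.08 higher at its 2 probe sets. None of 26 immediate early genes was called, and 1 passed at an unadjusted p under 0.05, again beside 3483 of 12436 genes. Fos varied widely, at 6.63, 5.34, 5.84 and 6.18 in KCN hearts and 7.63, 4.90, 5.17 and 7.53 in saline hearts.

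Heat shock genes split. Of 15 cytosolic members 2 rose and 2 fell. Cryab, the small chaperone of the sarcomere, rose at its brightest probe set by 0.39 (SE 0.08, limma adjusted p = 0.000713) and was 0.22 lower at the next (adjusted p = 0.0681). Of 24 glucocorticoid-responsive genes 2 rose, none fell and the median was 0.23, beside 9.25% of all genes that rose. Neither call held in every fit that left out 1 array. Fkbp5, a sensitive glucocorticoid target, measured 5.80, 6.10, 6.40 and 5.85 in KCN hearts and 5.14, 5.36, 5.77 and 5.70 in saline hearts (0.54, adjusted p = 0.225), while its earlier saline means were 6.90 to 8.23. Of 20 clock genes 1 was called. The output gene Dbp was higher in each KCN heart (8.52, 7.49, 8.43 and 7.51) than in any saline heart (7.36, 6.0, 7.16 and 7.36), yet the difference of 1.02 did not pass the test (adjusted p = 0.225).

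Collagens and matrix genes formed the list with the most rises. Of 35 tested genes, 10 rose and none fell (median 0.36, against 0.05 over all genes). Bgn, the proteoglycan biglycan, measured 10.94, 11.25, 11.08 and 10.98 in KCN hearts and 10.13, 10.52, 10.29 and 10.59 in saline hearts, a rise of 0.68 (SE 0.11, limma adjusted p = 1.09e-05) at its brighter probe set and 0.33 (adjusted p = 0.102) at the other. The gelatinase Mmp2 measured 9.0, 9.43, 9.05 and 8.97 in KCN hearts and 8.26, 8.45, 8.34 and 8.54 in saline hearts (0.71, SE 0.15, limma adjusted p = 0.000943). Both were without overlap. Col3a1, a fibrillar collagen, rose by 0.51 (SE 0.11, adjusted p = 0.00148), Col6a2 at both probe sets (0.79 and 0.86), and Tgfb1, the fibrogenic cytokine, by 0.86 (SE 0.24, adjusted p = 0.0123). Tgfb1 lost its call without KCN replicates 1 and 2 (0.89, adjusted p = 0.0767).

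In 22 of the 35 matrix genes, the saline 24 h mean lay outside the earlier saline range and the KCN 24 h mean inside it. Over all genes, 3691 of 12436 were in this state. The earlier saline means were 10.80 to 11.22 for Bgn, 8.82 to 9.50 for Mmp2 and 12.27 to 12.70 for Col3a1. Against saline 2 and 8 h none of the 35 was called in either direction. The fibroblast markers, averaged over 9 genes, ran between 8.67 and 8.90 in KCN hearts and between 8.42 and 8.67 in saline hearts, with 1 gene called. In whole-heart RNA, more cells of a type and more RNA per cell cannot be told apart.

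Of 12 endothelial markers 4 rose and none fell (median 0.28), beside 9.25% and 4.23% of all genes. The average over the 12 ran between 7.70 and 8.00 in KCN hearts and between 7.34 and 7.57 in saline hearts. Eng, the endothelial co-receptor for transforming growth factor beta, measured 8.37, 8.38, 8.42 and 8.12 in KCN hearts and 7.16, 7.23, 7.45 and 7.54 in saline hearts (0.98, SE 0.17, limma adjusted p = 7.78e-05), and both of its probe sets rose. Vwf, von Willebrand factor, rose by 0.84 (SE 0.20, adjusted p = 0.00244), and Nos3, endothelial nitric oxide synthase, by 0.72 (SE 0.18, adjusted p = 0.00383). The earlier saline means of Eng, 7.88 to 9.13, hold the KCN mean, as do those of Vwf (7.23 to 7.72) and Nos3 (5.99 to 7.55), and against saline 2 and 8 h none of the 12 rose and 2 fell. With the within-gene covariate Eng was 0.56 higher (adjusted p = 0.0588) and Vwf 0.66 higher (adjusted p = 0.0902), and neither was called.

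Of 12 macrophage markers 4 rose and none fell (median 0.32), beside 9.25% and 4.23% of all genes. All 4 rose in every fit that left out 1 array. The averages over the 12 lay between 6.50 and 6.82 in KCN hearts and between 6.25 and 6.39 in saline hearts. Csf1r, the receptor that macrophages need for survival, measured 5.96, 6.04, 6.13 and 6.15 in KCN hearts and 5.31, 5.46, 5.37 and 5.59 in saline hearts (0.63, SE 0.15, limma adjusted p = 0.00239). Cd68 rose by 0.76 (SE 0.20, adjusted p = 0.00706), and the complement genes C1qb and C1qc by 0.59 and 0.55. The KCN means lay within the earlier saline means, 5.75 to 6.37 for Csf1r and 5.61 to 6.55 for Cd68, and none of the 12 was called against saline 2 and 8 h. The call of Cd68 was lost without KCN replicates 1 and 2 (0.76, adjusted p = 0.0655), and so were those of C1qb and C1qc. Csf1r kept its call there but lost it with the within-gene covariate (0.50, adjusted p = 0.09). Acp5, an acid phosphatase of macrophages and osteoclasts, measured 6.76, 6.85, 5.25 and 5.71 in KCN hearts and 3.66, 4.03, 4.70 and 4.80 in saline hearts. It rose by 1.85 (SE 0.41, limma adjusted p = 0.00163), most in KCN replicates 1 and 2, and without them Acp5 was 1.18 higher and not called (adjusted p = 0.172). None of 9 neutrophil markers was called, and none of these passed at an unadjusted p under 0.05. None of 10 lymphocyte markers was called in the limma fit either, with 2 at an unadjusted p under 0.05. Over all genes, 3483 of 12436 had an unadjusted p under 0.05.

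Genes of the contractile apparatus changed modestly. Of 21 sarcomere genes 4 rose and 1 fell, beside 9.25% and 4.23% of all genes. Actn2, the alpha-actinin of the Z-disc, measured 11.79, 11.77, 11.78 and 11.80 in KCN hearts and 11.25, 11.30, 11.33 and 11.58 in saline hearts. The 4 KCN hearts were nearly equal and all higher (0.42, SE 0.08, limma adjusted p = 0.000105), as were the earlier saline means of 11.74 to 11.88. Des, the intermediate filament desmin, rose by 0.53 (SE 0.12, adjusted p = 0.00146), within its earlier saline means of 10.40 to 11.01. The atrial and ventricular stress peptides Nppa (-0.02, adjusted p = 0.882) and Nppb (-0.16, adjusted p = 0.731) did not pass the test. Of 17 potassium and sodium channel genes 3 rose, among them Kcnk3, the acid-sensitive background potassium channel. It rose by 0.56 (adjusted p = 0.0122) and lost its call without KCN replicate 1 (0.51, adjusted p = 0.0509).

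Several of the largest falls lay on dim probe sets of genes whose brightest probe sets were not called. The gene 1810014B01Rik fell by 3.03 at a dim probe set, and its brightest differed by -0.34 and was not called. Others of the largest falls carry no gene name, or, as for 4932431P20Rik (-2.64), lay on the only tested probe set of a gene. Ndufab1, an acyl carrier protein and complex I subunit, measured 12.41, 12.43, 12.46 and 12.49 in KCN hearts and 12.43, 12.39, 12.45 and 12.38 in saline hearts at its brightest probe set (0.04, adjusted p = 0.684). A dimmer Ndufab1 probe set measured 6.21, 6.21, 6.76 and 6.53 in KCN hearts and 10.19, 9.71, 8.84 and 8.27 in saline hearts. It fell by 2.83 (SE 0.29, limma adjusted p = 1.40e-10) without overlap. Its earlier saline means ran from 6.32 (2 h) and 6.59 (4 h) to 7.46 (8 h) and 9.30 (1 h), so the saline groups themselves spread over nearly the whole range.

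A like gap between bright and dim probe sets was seen in 5 other genes. Rab2a, a GTPase of early secretory transport, differed by 0.07 at its brightest probe set and by -2.73 (SE 0.25, limma adjusted p = 2.48e-11) at a dim one. Pttg1ip differed by 0.06 at the brightest and by -2.62 (SE 0.26, adjusted p = 1.10e-10) at a dim one, and Mfn1, a mitochondrial fusion protein, by 0.12 and -2.29 (SE 0.26, adjusted p = 5.06e-09). The small heat shock gene Hspb1 differed by 0.17 and 0.30 at its 2 bright probe sets and by -2.45 and -1.99 at its 2 dim ones. Pkp2, a desmosome protein, was 0.26 lower at the main probe set and 2.43 lower at the other. Saline replicate 1 was the highest of the 8 arrays, and saline replicate 4 the lowest of the 4 saline hearts, on each of these dim probe sets. The actin 3' to 5' ratio had the same order among the 4 saline hearts. Among the 4 KCN hearts its order differed from that of the dim Ndufab1 probe set. With the actin ratio as covariate, dim probe sets of all 6 genes were still called. The values were -2.71 for Ndufab1, -2.58 for Rab2a, -2.52 for Pttg1ip, -2.14 for Mfn1 and -2.23 for Pkp2. The Hspb1 probe set at -2.45 above was at -2.25. Whether these probe sets follow RNA quality or a transcript form was not tested.

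**Figure D3:**
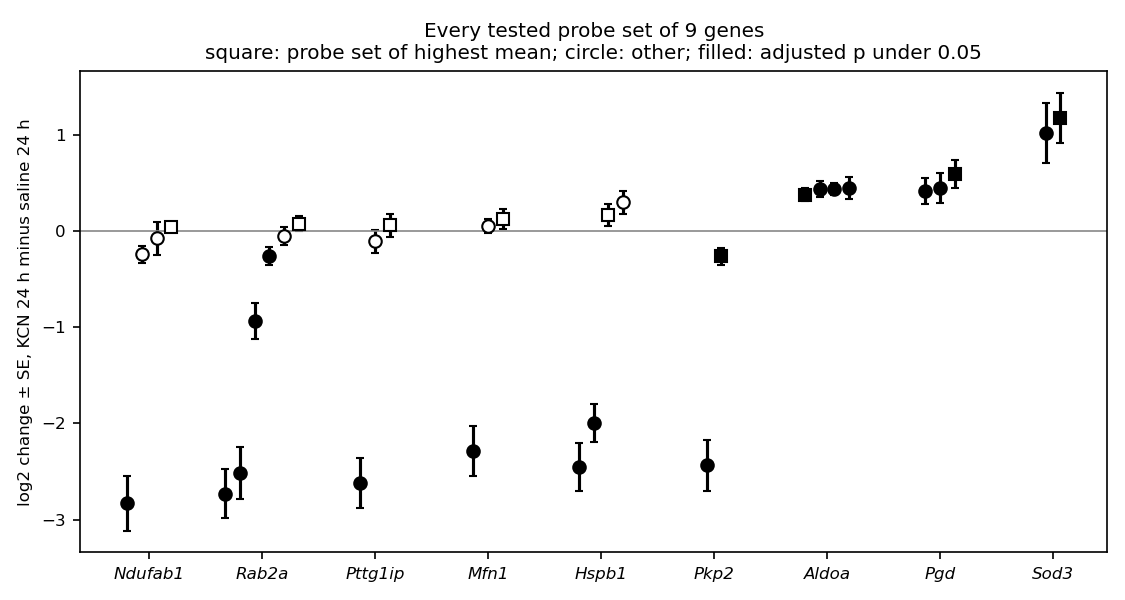
Log2 change, KCN 24 h minus saline 24 h, with its standard error at every tested probe set of 9 genes. Squares mark the probe set of highest mean signal, circles the others, and filled symbols an adjusted p under 0.05. The squares of Ndufab1, Rab2a, Pttg1ip, Mfn1 and Hspb1 lie near 0 while a dim probe set of each lies below -2, and all probe sets of Aldoa, Pgd and Sod3 lie above 0.

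Iron uptake gave a further case. The transferrin receptor Tfrc differed by -0.09 at its main probe set, at 10.81, 10.86, 10.90 and 10.80 in KCN hearts and 10.97, 10.93, 10.87 and 10.97 in saline hearts. A dim Tfrc probe set was 1.36 lower (adjusted p = 0.0199). It lost that call without KCN replicate 4 (-1.20, adjusted p = 0.0722) or without saline replicate 1 (-1.29, adjusted p = 0.0631), and was 2.09 higher than saline 2 and 8 h (adjusted p = 0.00023).

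Transcripts of neighbouring tissues differed from heart to heart. Of 10 listed hepatocyte markers 7 were tested, and all 7 rose, with a median of 1.14 (over all genes 9.25% rose). Testing required 1 group mean above 3.23. Cyp3a11, Apoa1 and Fga had KCN 24 h means of 3.92, 3.55 and 3.37, and all their saline group means lay below 3.23. The count of 7 thus depends in part on this filter. Averaged over the 7, the markers measured 4.96, 6.26, 3.71 and 3.71 in KCN hearts and 3.16, 3.04, 3.37 and 3.48 in saline hearts. Alb, serum albumin, measured 5.95, 8.41, 3.02 and 3.31 in KCN hearts and 2.94, 2.71, 3.12 and 3.02 in saline hearts. KCN replicates 1 and 2 alone were high. Its difference of 2.22 (SE 0.50, limma adjusted p = 0.00171) was 0.21 (adjusted p = 0.822) with both left out, and Apoa1, Apoa2 and Cyp3a11 had the same order. Over the whole study, Alb exceeded 5 in 3 of 69 arrays, 1 of them outside the 8 arrays compared here. Cyp2e1, a cytochrome P450 of liver and fat, was high in all 4 KCN hearts, at 8.81, 8.37, 8.26 and 8.19 against 5.36, 4.85, 6.34 and 7.15 in saline hearts (2.48, SE 0.64, limma adjusted p = 0.00578). Its earlier saline means were 7.28 to 7.78, and without KCN replicates 1 and 2 its difference of 2.30 was not called (adjusted p = 0.0816).

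Airway and fat transcripts varied in both groups. Scgb1a1, the secretoglobin of club cells, measured 11.34, 12.03, 10.13 and 2.90 in KCN hearts and 3.04, 2.61, 9.51 and 2.66 in saline hearts, and its difference of 4.64 did not pass the test (adjusted p = 0.223). None of the 10 lung and airway markers was called, although their median was 2.69. None passed at an unadjusted p under 0.05 either, beside 3483 of all 12436 genes. Over these 10, arrays averaged 7.10, 8.09, 6.90 and 3.14 in KCN hearts and 3.05, 3.07, 6.32 and 2.97 in saline hearts. Ucp1, the uncoupling protein of brown fat, measured 10.48, 10.35, 6.71 and 7.14 in KCN hearts and 2.95, 5.77, 7.81 and 7.24 in saline hearts (2.73, adjusted p = 0.144). Adipoq, the fat hormone adiponectin, measured 10.49, 10.25, 8.34 and 8.74 in KCN hearts and 5.09, 6.86, 8.82 and 8.36 in saline hearts (2.17, adjusted p = 0.0817).

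KCN replicates 1 and 2 were thus highest for liver, white fat and brown fat markers, and saline replicate 1 lowest for both fat lists. White fat markers averaged 8.65, 8.53, 7.74 and 7.78 in KCN hearts and 6.87, 7.30, 7.93 and 7.64 in saline hearts. Brown fat markers averaged 8.99, 8.90, 7.93 and 8.03 in KCN hearts and 7.05, 7.77, 8.11 and 8.11 in saline hearts. Lipe, Slc25a1, Pcx, Gpd1, Acp5 and Fasn were likewise highest in KCN replicates 1 and 2. So were, by smaller margins, Tst, Dgat1, Slc25a10 and the brightest probe set of Pgd. The part of fat and liver RNA in those values was not tested. With both of these KCN hearts left out, 1112 probe sets were called.

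**Figure D4:**
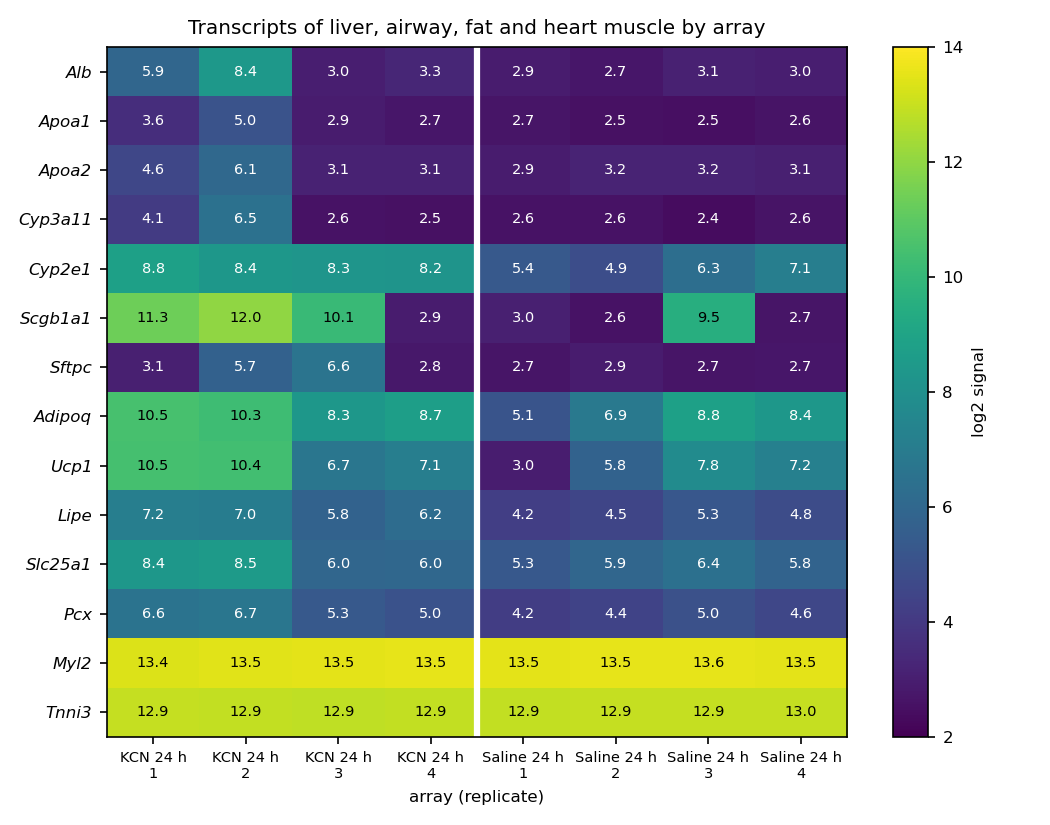
Log2 signal by array (colour and printed value) of liver (Alb, Apoa1, Apoa2, Cyp3a11, Cyp2e1), airway (Scgb1a1, Sftpc), fat (Adipoq, Ucp1), lipid metabolism (Lipe, Slc25a1, Pcx) and heart muscle genes (Myl2, Tnni3), with the 4 KCN hearts on the left and the 4 saline hearts on the right. Alb, Apoa1, Apoa2 and Cyp3a11 are high in KCN replicates 1 and 2 alone, and Myl2 and Tnni3 are level in all 8 arrays.

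Some calls, though not always their sizes, held in all of 26 fits. In these fits, which used other normalizations, filters and covariates, other saline groups as reference, or left out arrays, 19 probe sets were called in the same direction every time. They were picked after their values were seen and are given as a description. The 5 that rose are those of Dgat1, Coq9, Emc10 (a subunit of a membrane protein insertion complex), Tomm6 (a subunit of the mitochondrial import pore) and Cd99l2. Coq9, needed for the synthesis of coenzyme Q, the electron carrier ahead of complex III, measured 11.53, 11.46, 11.54 and 11.49 in KCN hearts and 11.12, 11.25, 11.19 and 11.15 in saline hearts. It rose by 0.33 (SE 0.05, limma adjusted p = 2.77e-05), and all 4 KCN hearts lay above the earlier saline means of 11.31 to 11.35. Emc10 measured 9.40, 9.36, 9.48 and 9.37 in KCN hearts and 8.90, 8.96, 8.90 and 8.90 in saline hearts (0.49, SE 0.08, limma adjusted p = 3.23e-05). Tomm6 rose at both of its probe sets, by 0.47 and 0.68, while Cd99l2 rose by 0.72 at 1 of 3 and differed by -0.04 at the brightest. The rises against saline 2 and 8 h were 0.52 for Dgat1, 0.48 for Emc10, 0.33 for Tomm6, 0.34 for Cd99l2 and 0.18 for Coq9.

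Of the 14 that fell, 12 carry a single gene name. A probe set of the actin gene Actb was among them, with a mean of 9.26 in KCN hearts and 10.29 in saline hearts. It differed by -1.03 (SE 0.25, limma adjusted p = 0.00357), and its bearing on the actin 3' to 5' ratio was not tested. Hnrnpk, an RNA-binding protein of splicing and translation, measured 9.70, 9.86, 9.83 and 9.89 in KCN hearts and 10.32, 10.30, 10.31 and 10.34 in saline hearts, a fall of 0.50 (SE 0.07, limma adjusted p = 3.16e-06), and its second probe set was 0.24 lower (adjusted p = 0.0418). The purine salvage enzyme Hprt measured 9.50, 9.60, 9.56 and 9.70 in KCN hearts and 10.02, 9.88, 9.91 and 9.85 in saline hearts (-0.33, SE 0.06, limma adjusted p = 0.000375). Ppid, a cyclophilin that works with Hsp90, fell by 0.57 (SE 0.11, adjusted p = 0.000395), and Trim23, a ubiquitin ligase, by 0.80 (SE 0.12, adjusted p = 4.07e-06) at the brighter probe set, with the other 0.56 lower (adjusted p = 0.0140). The Cox6c probe set described above was another, as was 1 of Nus1, a subunit of the enzyme that makes dolichol, which fell by 0.89 (SE 0.12, adjusted p = 5.76e-07). The brightest Nus1 probe set was 0.24 lower (adjusted p = 0.0882), and a dim one differed by -1.87. The falls against saline 2 and 8 h were smaller for Hnrnpk (-0.22), Hprt (-0.21), Trim23 (-0.39) and Nus1 (-0.56) and close to the same for Ppid (-0.55) and Cox6c (-0.50).

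**Figure D5:**
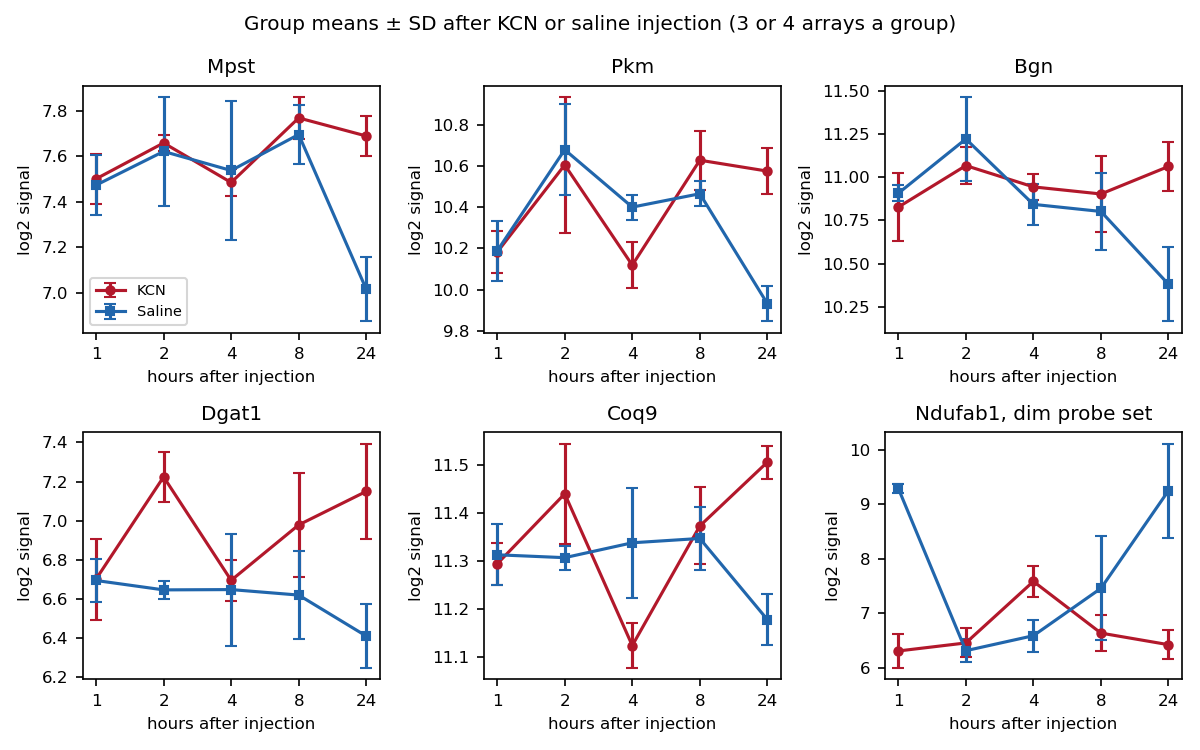
Group means with SD (3 or 4 arrays a group) of 6 probe sets after KCN (red) and saline (blue) at 1, 2, 4, 8 and 24 h, on a log2 axis with the hours evenly spaced. Saline at 24 h falls below the earlier saline groups for Mpst, Pkm and Bgn, KCN at 24 h lies above them for Dgat1 and Coq9, and the dim Ndufab1 probe set is high in saline at 1 and 24 h.

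At 8 h after injection, KCN and saline hearts differed at 90 of the 26773 probe sets (0.336%), with 3180 at an unadjusted p under 0.05. The effect of KCN at 24 h differed from that at 8 h, tested as an interaction between hearts with no array in common, at 252 probe sets (0.941%). Among the genes described, those that passed it included Bgn (0.68 at 24 h, 0.10 at 8 h, interaction 0.58, adjusted p = 0.0442), Cpt2 (0.40 at 24 h, -0.21 at 8 h, interaction 0.62, adjusted p = 0.0147) and Coq9 (0.33 at 24 h, 0.03 at 8 h, interaction 0.30, adjusted p = 0.0372). Trim23 (-0.69, adjusted p = 0.0274), Mrpl4 (0.51, adjusted p = 0.0177), the called Cd99l2 probe set (0.85, adjusted p = 0.00124), the Nus1 probe set above (-0.84, adjusted p = 0.00504) and the dim probe sets of Ndufab1, Rab2a, Pttg1ip, Mfn1, Hspb1 and Pkp2 passed as well. Mpst was 0.07 higher at 8 h (interaction 0.60, adjusted p = 0.101), and Dgat1 was 0.36 higher (interaction 0.38, adjusted p = 0.384), so neither was shown to differ between the times. For Tst the values were 1.10 at 24 h and 0.64 at 8 h (interaction 0.46, adjusted p = 0.617).

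Inhaled HCN gave a different picture at 24 h. Against air, 3834 probe sets were called (14.3%), and the KCN and HCN effects differed at 5037 (18.8%). The 2 comparisons share no arrays, but the HCN hearts had the higher actin ratio, 0.979 against 0.386 in air hearts, the reverse of KCN and saline hearts. Mpst was 0.67 higher after KCN and 0.78 lower after HCN (difference of the effects 1.46, limma adjusted p = 1.19e-07). Pkm was 0.64 higher after KCN and 0.49 lower after HCN (1.14, adjusted p = 1.18e-06), and Csf1r 0.63 higher after KCN and 0.58 lower after HCN (1.21, adjusted p = 2.07e-05). Tst was 1.10 higher after KCN and 0.05 higher after HCN (1.05, adjusted p = 0.0301). Dgat1 was 0.74 higher after KCN and 0.26 higher after HCN, and that difference did not pass the test (0.48, adjusted p = 0.0722).

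Where the fit carried the actin ratio, the KCN and HCN effects differed at 808 probe sets in place of 5037. Against air, HCN raised 5.75% and lowered 4.46% of genes. Of the 63 mitochondrial ribosomal genes, the KCN effect was higher than the HCN effect in 16 and lower in 4 (over all genes, 9.25% and 8.03%). Of the 35 matrix genes it was higher in 6 and lower in none, and of the 12 macrophage markers higher in 5 and lower in none. The dim Ndufab1 probe set was 2.83 lower after KCN and 0.88 higher after HCN (adjusted p of the HCN effect 0.0285), and that of Rab2a 2.73 lower after KCN and 0.71 higher after HCN, where it did not pass the test (adjusted p = 0.0509).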

How the data were processed

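The deposited table holds log2 signals of 69 mouse heart arrays, made by the authors and listed with MAS5 in the submitters' processing notes; its settings were not given in the sources used here. Of 45141 probe sets, 26773 with a group mean above 3.23 (the median of all group means) were tested. limma 3.58.1 in R 4.3.3 fitted the 18 group means, with an intensity trend, and p-values were adjusted by Benjamini-Hochberg over all tested probe sets (threshold 0.05). The limma p-values rest on 1 spread per probe set, estimated over all 69 arrays in 18 groups. They do not measure the spread within the 8 hearts alone. For Alb the SD was 2.53 in KCN hearts and 0.17 in saline hearts, and the SE given for the difference was 0.50. The 4 arrays a group limit the precision. For 1 value per gene, the probe set with the highest mean over all arrays was taken. Gene names came from the platform table, and 28898 probe sets had 1 symbol, 551 several and 15588 none. Single values were compared by exact permutation tests. The procedure was tested on simulated data.

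The gene lists, the genes compared and the tests were chosen with earlier results of these data known. Named genes were the largest changes called on several probe sets or on a gene's only probe set, genes called in both directions, the list members of lowest p, the members of short list counts and a fixed set. The genes Coq9, Emc10, Tomm6, Cd99l2, Hnrnpk, Hprt, Ppid, Trim23, Nus1, Gss, Slc25a10, Myl2, Tnni3 and Tfrc, and others outside these, were chosen after their values were seen. Promoter sequences are RefSeq's. Alternatives changed the normalization, filter, moderation, covariates, reference and arrays. The references of saline 2 and 8 h, and the fit without KCN replicates 1 and 2, were added after seeing the data.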

Additional observations from a re-analysis of the deposited data

Results flagged for a closer look

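In 10 of 146 groups of 4 values, 1 array stood far from the other 3, with a gap over the range above Dixon's critical value for 4 values. Chance gives about 1 in 20 groups. The arrays and gaps were Cd68 in saline replicate 4 (0.905), Cd99l2 in saline replicate 4 (0.846), Cyp3a11 in saline replicate 3 (0.854), Emc10 in saline replicate 2 (0.994), Mmp2 in KCN replicate 2 (0.836), Pdk2 in KCN replicate 1 (0.896), Pkm in KCN replicate 2 (0.905), Ppp1r15a in KCN replicate 2 (0.853), Rab2a in KCN replicate 1 (0.86) and Scgb1a1 in saline replicate 3 (0.937).

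The KCN 24 h effect differed from the KCN 8 h effect by the interaction test in 5 of 73 genes, with log2 differences of 0.579 for Bgn, 0.302 for Coq9, 0.371 for Cox6a2, 0.616 for Cpt2 and -0.694 for Trim23.

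The KCN 24 h effect differed from the HCN 24 h effect in 45 of the 73 genes. The actin ratio ran in opposite directions in these 2 comparisons, and its part was not tested gene by gene. The KCN effect was higher by 0.968 for Acads, 2.13 for Acp5, 0.499 for Actn2, 2.09 for Alb, 0.511 for Aldoa, 1.04 for Apoa1, 1.33 for Apoa2, 0.767 for Bgn, 0.784 for Cd68, 0.971 for Cd99l2, 0.486 for Col3a1, 0.429 for Coq9, 0.405 for Cpt2, 0.498 for Cryab, 1.21 for Csf1r, 1.31 for Cyp3a11, 0.874 for Des, 0.485 for Emc10, 1.47 for Eng, 0.68 for Gss, 2.88 for Lipe, 0.751 for Mmp2, 1.46 for Mpst, 1.88 for Pcx, 2.15 for Pdk2, 0.862 for Pfkm, 0.634 for Pgd, 1.69 for Phlda3, 1.14 for Pkm, 1.5 for Ppp1r15a, 1.33 for Shmt2, 2.69 for Slc25a1, 0.912 for Slc25a10, 1.91 for Sod3, 0.979 for Tgfb1, 0.374 for Tomm6 and 1.05 for Tst. It was lower for Cox7a2 (-0.168), Hif1a (-0.606), Hnrnpk (-0.592), Hprt (-0.546), Nus1 (-0.523), Pkp2 (-0.463), Ppid (-0.669) and Trim23 (-0.912).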

How the results depend on the processing

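Among the 83 probe sets followed, no called value changed sign under other normalizations, filters, moderation, covariates or when 1 array was left out. The count of 3191 was 6054 with array weights, 950, 653 and 301 when 1, 2 and 3 factors of within-gene differences were covariates, 1764 on the mean of a gene's probe sets, 1799 on 1 probe set per gene, 689 against saline 1 to 8 h, 1152 against saline 2 and 8 h, 1085 at 1.5-fold and 1112 without KCN replicates 1 and 2. Leaving out 1 array gave 1829 to 2771. The share that rose was 56.9%, against 66.9% on gene means, 67.9% on 1 probe set per gene, 46.2% against saline 1 to 8 h, 48.8% against saline 2 and 8 h, and 46.0%, 38.4% and 42.5% with the factors. Of the 3191, 142 were called in the same direction against saline 2 and 8 h and 1515 had the opposite sign. With the actin covariate 2546 were called, 1886 of them shared. Genes with several called probe sets numbered 252, against 426 in the fit of the 2 groups alone, 587 with array weights, 56, 36 and 12 with the factors, 49 against saline 1 to 8 h, 64 against saline 2 and 8 h, 66 without KCN replicates 1 and 2, and 122 to 202 with 1 array left out. Called list members numbered 128, against 225 with array weights, 39, 26 and 14 with the factors, 58 against saline 1 to 8 h, 60 against saline 2 and 8 h, 36 without KCN replicates 1 and 2, and 80 to 116 with 1 array left out. The interaction with KCN 8 h (252) gave 426 with the actin covariate and 162, 69 and 35 with the factors, and that with HCN (5037) gave 808, and 71, 178 and 294. The Gapdh 3' to middle ratio differed by -0.15 (exact permutation p = 0.0286). The causes were not tested.

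Values that changed sign on the mean of a gene's probe sets were Hspb1 -0.99, Mfn1 -0.70, Ndufab1 -0.78, Pttg1ip -0.89 and Rab2a -1.07. Against saline 1 to 8 h they were Actn2 -0.0211, Col3a1 -0.0411, Cpt2 -0.0144, Pdk2 -0.0236, Pfkm -0.0069, Ppp1r15a -0.14, Tfrc 1.58 and Usp2 -0.41. Against saline 2 and 8 h they were Actn2 -0.0265, Aldoa -0.0694, Col3a1 -0.14, Cpt2 -0.0918, Cryab -0.0169, Csf1r -0.0557, Des -0.19, Eng -0.28, Hspb1 0.27, Kcnk3 -0.15, Mmp2 -0.0493, Pdk2 -0.36, Pfkm -0.15, Ppp1r15a -0.28, Pttg1ip 0.0337, Rab2a 0.0743, Shmt2 -0.0948, Tfrc 2.09 and Usp2 -0.55. Without KCN replicates 1 and 2, Cyp3a11 was -2.5e-05. Replicate numbers did not pair the arrays, since deviations of same-numbered arrays correlated between -0.0963 and 0.00815; the fit with the replicate block called 3248.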
